A study of Mus musculus with 30 samples.

Results

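The levels of 10 genes of the Rap1, RGS (regulator of G protein signalling) and calcium pathways were compared in platelets and peripheral blood mononuclear cells (PBMCs) of mice with and without melanoma cells. The 10 genes (Rap1b, Rasgrp2, Rasa3, Fermt3, Rgs18, Rgs10, Gnaq, Stim1, Orai1 and Nrgn) were taken by symbol as genes with known roles in platelet signalling, with earlier results of these data in view, from the 54532 genes of the count tables, and each of them passed the filter on low counts in every comparison. Female C57BL/6 mice, 6 to 8 weeks old at the start, were injected under the skin of the right flank. C group received 100 µl of buffer (HBSS) without cells, S group 2000 B16F10 cells, a mouse melanoma line, and O group 100000 B16F10 cells. Blood was taken on day 14, when S group had no visible tumor, and the question asked was whether platelet RNA differs at that stage. Each group gave 5 platelet and 5 PBMC libraries of polyadenylated RNA, 30 in all, and each library was a pool of mice. The platelet pools held 10, 5, 5, 10 and 10 mice in C group and 3, 4, 5, 3 and 5 in O group; for S group the labels give 10 mice in every pool, whereas the methods list 10, 10, 9, 11 and 10. PBMC pools held 3 to 5 mice. The P values therefore measure the spread between pools. Pool size thus differed between the groups in platelets, with C group overlapping both others, and its part in the group comparisons was not tested. PBMCs were taken from the lower layer of centrifuged blood left after the platelet-rich plasma, so the tissues can share mice. Whether pools with the same number hold the same mice is not given in the sources used here.

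Rap1b is the most abundant small GTPase of platelets and, in its GTP-bound form, switches the integrin αIIbβ3 into the state that binds fibrinogen. CalDAG-GEFI, the product of Rasgrp2, loads Rap1 with GTP when calcium rises, and the GTPase-activating protein Rasa3 turns Rap1 off. Calcium is released after Gαq (Gnaq) activates phospholipase C, and its stores are refilled through the sensor Stim1 and the channel Orai1, while Rgs18 and Rgs10 shorten the signal of Gα subunits.

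Total counts per library ranged from 12259036 to 25360080 in platelets and from 13390983 to 15973449 in PBMCs. All 12 platelet and megakaryocyte markers had counts in the platelet libraries, where their summed level ranged from 14954 to 75101 CPM against 496 to 6644 CPM in PBMCs. Platelet libraries also held leukocyte markers (6 B cell markers, summed level from 430 to 1971 CPM, against 1093 to 2059 CPM in PBMCs, 6 monocyte and macrophage markers, 972 to 5483 against 1818 to 4253 CPM, and 6 neutrophil markers, 216 to 4309 against 194 to 3188 CPM) and erythroid markers (6 genes, from 4.17% to 41.1% of the counts of a platelet library and from 3.34% to 27.1% of a PBMC library). All 5 melanocyte markers had counts in platelets of C group, Mlana and Tyr had none in S group and Tyrp1 had none in O group, and the summed level in platelets was at most 8.35 CPM, against 8.7 to 25.2 CPM in PBMCs. Normalization factors over the 30 libraries ranged from 0.399 to 0.999 in platelets and from 0.9 to 1.77 in PBMCs, so platelet and PBMC levels depend on this scaling. PBMC S group replicate 3 stood apart with 32900 detected genes, against 20540 to 22991 in the other PBMC libraries, and platelet C group replicate 1 and O group replicate 1 had the lowest factors. In such bulk RNA, fewer cells of a type and less RNA per cell cannot be told apart.

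Promoter windows, from 250 bases before to 50 bases after the annotated start, were found in RefSeq for 9 of the 10 genes, with 10 windows in all since Rasgrp2 has 2. The genes move together across platelet libraries, as described further on, and the stretches of 120 bases before the start of Fermt3 and Gnaq are shown because they represent the contrasting base compositions among them and overlap no annotated exon. Capitals mark TGTGGT, the core bound by RUNX factors, in Fermt3 (chr19:7019470-7019589, minus strand) and CCCGCCC or its complement, an SP and KLF type GC box, in Gnaq (chr19:16132564-16132683, plus strand), both in GRCm38.p6 and written 5′ to 3′.
Fermt3: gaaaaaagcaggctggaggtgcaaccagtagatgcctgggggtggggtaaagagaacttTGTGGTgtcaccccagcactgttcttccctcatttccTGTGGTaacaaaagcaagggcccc
Gnaq: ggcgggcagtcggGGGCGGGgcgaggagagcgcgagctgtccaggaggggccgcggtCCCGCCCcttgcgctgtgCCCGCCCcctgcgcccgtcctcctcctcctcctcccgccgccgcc
The Fermt3 window held 3 CpG dinucleotides and 52.3% G and C, near the median of all 32851 mouse windows (7 CpG and 52.7%), whereas the other 9 windows held 17 to 48 CpG and 59.3% to 80% G and C. TGTGGT was found 61 and 24 bases before the start of Fermt3 and in no other member's window, against 16.8% of all windows. CCCGCCC was found in windows of 7 of the 9 genes (Orai1, Stim1, Rasa3, Nrgn, Rap1b, Rasgrp2 and Gnaq), against 25.6% of all windows. AGATAA, the letters read by GATA factors, and TGAGTCA, those of NF-E2, were in no member window, against 11.2% and 5.2% of all windows, and CCGGAAG, of ETS factors, was in 1 window of Rasgrp2, against 8.86%. Both strands were searched, the motifs share no overlapping match in these windows, and a match describes letters only.

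Levels of different genes were compared per kilobase (kb) of exon, with exons merged over all annotated transcripts. In the 15 platelet libraries Nrgn, which encodes the calmodulin-binding protein neurogranin, had the highest level of the 10 genes, with 12920 ± 5967 CPM per kb (SD, n = 15), rank 9 of the 28208 genes with a count. Rgs18 (704 ± 310 CPM per kb, rank 94), Rgs10 (695 ± 263, rank 95), Rap1b (645 ± 176, rank 102) and Fermt3 (464 ± 176, rank 143) followed. Rgs18, Rgs10 and Rap1b lay within 1 SD of each other, and Fermt3 lay just over 1 SD below Rap1b. Rasgrp2 (160 ± 61.6 CPM per kb, rank 400) and Rasa3 (154 ± 39.6, rank 412) came next and likewise did not differ beyond their spread. Stim1 (24 ± 9.64 CPM per kb), Orai1 (20.7 ± 8.42) and Gnaq (12.2 ± 3.77) were lowest, at ranks 1748, 1967 and 2922, and of these Stim1 and Orai1 lay within 1 SD of each other. The merged exons of Rasgrp2 span 12384 bases and those of Stim1 10371, so their levels per kb are low relative to genes with few annotated transcripts. In PBMCs the order was led by Nrgn (382 ± 144 CPM per kb, rank 51 of 36998), Rap1b (118 ± 11.6, rank 218) and Rasa3 (79.1 ± 2.96, rank 326), and Rgs18 stood at rank 1169.

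**Figure D1:**
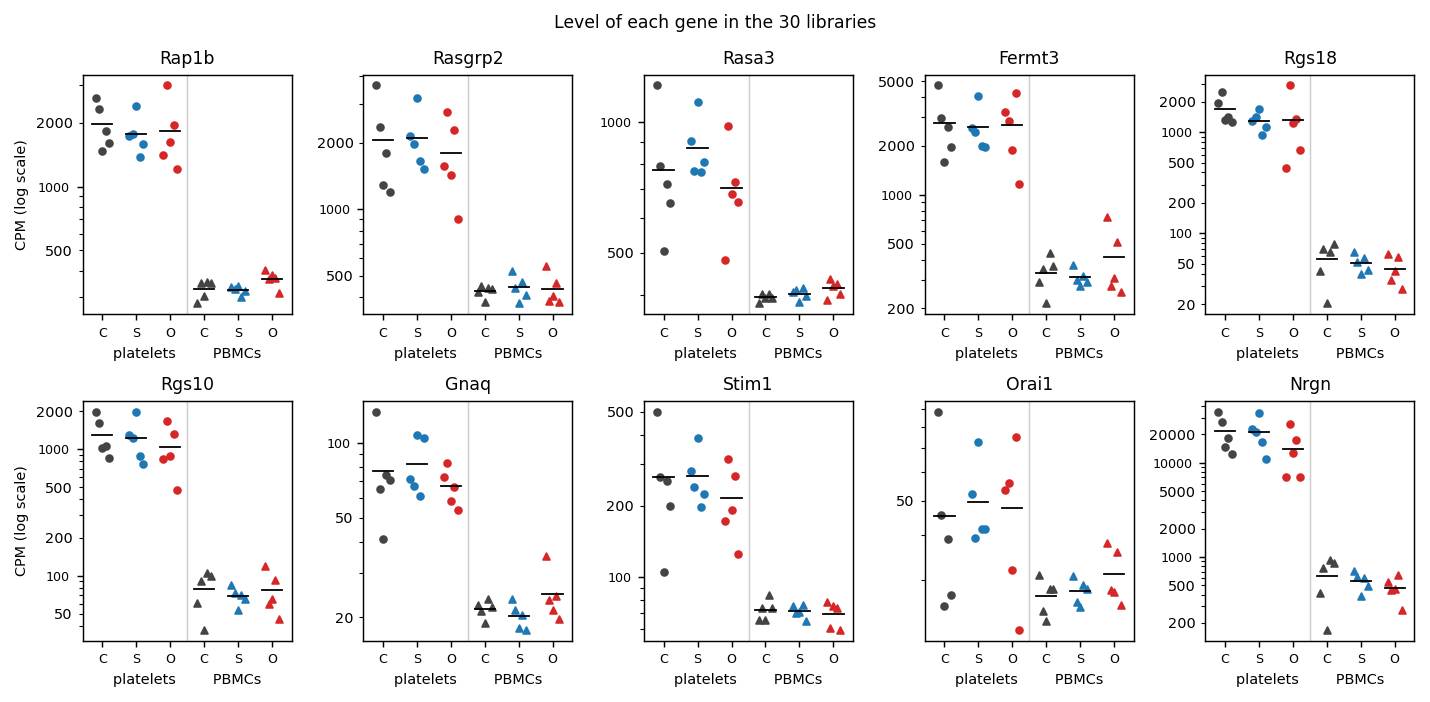
Level of each gene (CPM, log axis, a scale of its own per gene) in the 30 libraries, with platelets as circles and PBMCs as triangles, C, S and O group from left to right and the mean of 5 libraries as a line. With this TMM scaling the platelet libraries sit above the PBMC libraries without overlap in 9 genes and overlap them in Orai1, whereas on library totals 4 genes stay apart, and within a tissue the 3 groups overlap.

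The comparison of platelets with PBMCs asked which of these transcripts are platelet-rich. All 10 genes were higher in platelets at an adjusted P under 0.05, where 81% of the 16498 genes tested were called, 35.8% higher and 45.2% lower, and the median log2 fold change of the 10 was 2.27 against -0.17 over all genes. In 9 of the 10 every platelet library lay above every PBMC library with TMM scaling, against 12.1% of all genes. On library totals alone this held for 4 of the 10, Nrgn, Rgs18, Rgs10 and Fermt3, against 3.75% of all genes, and the tissues overlapped in the other genes. The sizes fell into a steep order, from 32.4-fold for Nrgn to 1.6-fold for Orai1.

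Among the genes of the Rap1 cycle, Rap1b had 1211, 1723 and 2999 CPM as lowest, median and highest value in platelets and 281, 341 and 404 CPM in PBMCs. It was 5.29-fold higher in platelets (log2 fold change 2.40, SE 0.12, adjusted P = 8.6e-17). Rasgrp2 had 905, 1794 and 3632 CPM in platelets and 376, 437 and 552 CPM in PBMCs, and was 4.38-fold higher (log2 fold change 2.13, SE 0.16, adjusted P = 1.7e-13). The inhibitor Rasa3, with 480, 767 and 1217 CPM in platelets and 382, 402 and 435 CPM in PBMCs, differed least of the Rap1 genes and was 1.87-fold higher (log2 fold change 0.90, SE 0.10, adjusted P = 1.1e-09). Fermt3 encodes kindlin-3, which binds the β3 tail beside talin, and had 1170, 2565 and 4711 CPM in platelets against 215, 310 and 726 CPM in PBMCs (7.44-fold, log2 fold change 2.90, SE 0.20, adjusted P = 2.4e-14).

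The RGS genes differed most next to Nrgn. Rgs18 had 442, 1326 and 2897 CPM in platelets and 20.4, 51.7 and 79.4 CPM in PBMCs, a 27.2-fold difference (log2 fold change 4.77, SE 0.24, adjusted P = 1.0e-16). Rgs10 had 475, 1062 and 1976 CPM in platelets and 37.4, 70.2 and 119 CPM in PBMCs, a 15.4-fold difference (log2 fold change 3.94, SE 0.20, adjusted P = 1.2e-16). For both, the lowest platelet library was far above the highest PBMC library with TMM. On library totals the gap was narrower, 184 against 139 CPM for Rgs18 and 346 against 178 CPM for Rgs10.

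Of the calcium genes, Nrgn had 6972, 17387 and 34681 CPM in platelets and 170, 542 and 930 CPM in PBMCs (32.4-fold, log2 fold change 5.02, SE 0.27, adjusted P = 3.5e-16). Gnaq had 41.1, 70.9 and 133 CPM in platelets against 17.8, 21.3 and 35.1 CPM in PBMCs (3.28-fold, log2 fold change 1.71, SE 0.12, adjusted P = 5.4e-14). Stim1 had 105, 240 and 501 CPM against 59.7, 73.5 and 83.6 CPM (3.36-fold, log2 fold change 1.75, SE 0.15, adjusted P = 4.0e-12). The sensor Stim1 differed more than its channel: Orai1 had 21.8, 41.7 and 88.5 CPM in platelets and 23.1, 28.4 and 38.1 CPM in PBMCs, so that the tissues overlapped (log2 fold change 0.68, SE 0.15, adjusted P = 1.7e-04).

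Rasa3 and Orai1 changed direction with the scaling. With library totals alone, their log2 fold changes were -0.35 (adjusted P = 0.012) and -0.62 (adjusted P = 2.9e-05), while the median of all genes moved from -0.17 to -1.38. Relative to that median they stood at 1.03 and 0.76 with library totals and at 1.07 and 0.85 with TMM. The other 8 genes stayed higher in platelets under both scalings, with log2 fold changes from 0.46 (Stim1 and Gnaq) to 3.74 (Nrgn) with library totals. In O group alone, with 5 libraries of each tissue, Orai1 was not called (log2 fold change 0.70, SE 0.31, adjusted P = 0.073), nor with the replicate number as a block (0.56, SE 0.23, adjusted P = 0.058), and its level was higher in platelets in 4 of the 5 same-numbered pools.

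**Figure D2:**
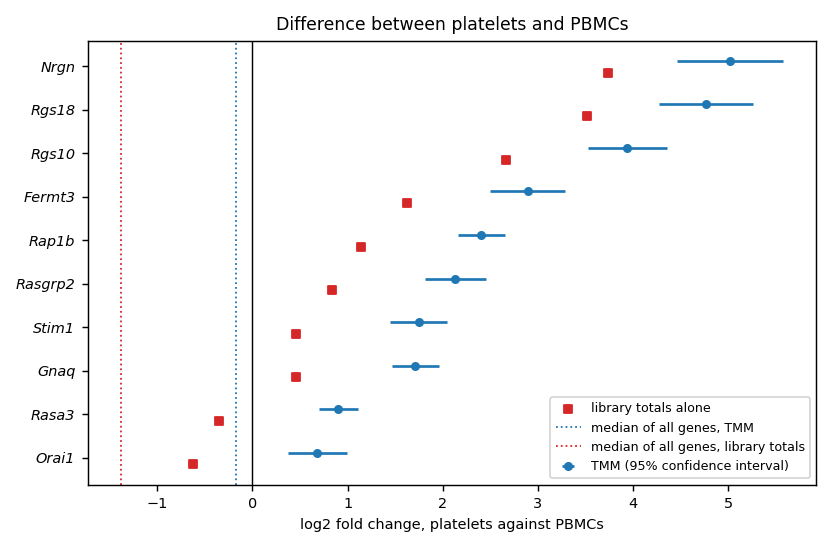
Log2 fold change of each gene between platelets and PBMCs over 30 libraries, as blue points with 95% confidence intervals (TMM) and as red squares (library totals alone), with the median of all genes under each scaling as a dotted line. All 10 genes lie above 0 with TMM, Rasa3 and Orai1 lie below 0 with library totals, and each gene lies above its scaling's median.

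Within a gene family, the share that a gene takes of the summed level per kb does not depend on the scaling between libraries. Rgs18 and Rgs10 together took a median of 95.5% of the level of 12 RGS genes in platelets (lowest 89.7%, highest 97.4%) and 44.3% in PBMCs (27.7% to 53.9%), so that the ranges did not overlap. Rasgrp2 took 85% of 4 Rasgrp genes in platelets (65.5% to 90.9%) and 46.1% in PBMCs (41.5% to 54.3%). Stim1 took 90.9% of the Stim genes in platelets (81.4% to 94%) and 57.7% in PBMCs (48.6% to 61.6%), and Gnaq 72% against 44.1% of Gnaq and Gna11 (65.3% to 86.3% and 38.6% to 57%). Each of these shares was higher in every platelet library than in any PBMC library.

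The remaining families were closer. Rap1b took 82.6% of the Rap1 level in platelets (74.3% to 85%) and 77.3% in PBMCs (71% to 80.2%), with overlapping ranges. Its paralog Rap1a was itself higher in platelets (log2 fold change 1.90, SE 0.11, adjusted P = 7.9e-16). Orai1 took 39.9% (30.5% to 55%) of the Orai level in platelets and 27.5% (23.6% to 34.2%) in PBMCs, beside Orai2, which was lower in platelets (log2 fold change -0.62, SE 0.09, adjusted P = 6.2e-07), and Orai3, which was higher (0.44, SE 0.10, adjusted P = 2.4e-04). Rasa3 held 95.7% of the Rasa level in platelets and 90% in PBMCs, and Fermt3 at least 98.7% of the Fermt2 and Fermt3 level in every library. The paralogs Stim2 (log2 fold change -1.10, SE 0.10, adjusted P = 4.5e-11) and Rasgrp1 (-0.69, SE 0.11, adjusted P = 5.8e-07) were lower in platelets. For Gna11 (-0.10, SE 0.09, adjusted P = 0.29) and Rasa2 (-0.04, SE 0.09, adjusted P = 0.714) no difference was called.

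**Figure D3:**
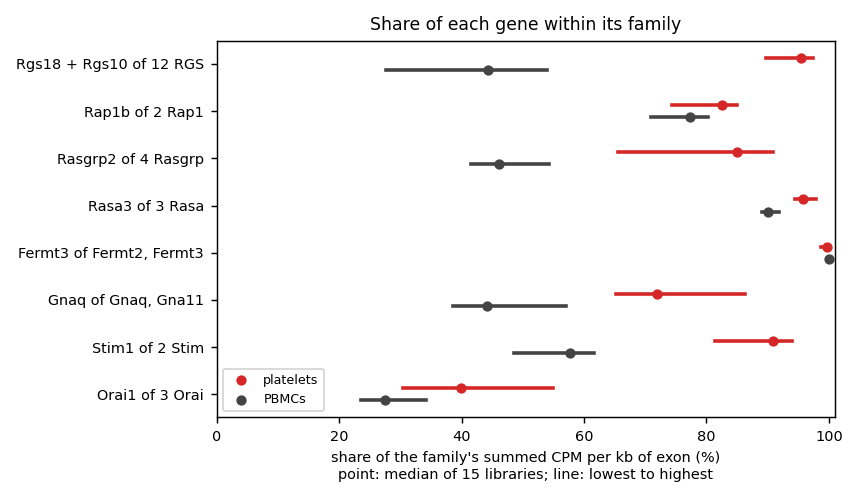
Share (%) of each gene in the summed CPM per kb of its family, with the median of 15 libraries as a point and the lowest to highest library as a line, for platelets (red) and PBMCs (grey). Rgs18 with Rgs10, Rasgrp2, Gnaq, Stim1 and Rasa3 take a larger share in every platelet library than in any PBMC library, and Rap1b and Orai1 overlap.

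The other genes of the same pathways were split between the tissues. Of 79 tested in 4 lists (82 listed), 40 were higher and 30 lower in platelets, with a median log2 fold change of 0.26, beside 35.8% higher and 45.2% lower among all genes. With library totals alone, 24 were higher and 48 lower (median -0.97), beside 14.2% and 76.9% of all genes. Of the G protein subunits, 10 of 13 were higher and 1 lower with TMM, and 5 were higher and 6 lower with library totals. They were led by the γ subunit Gng11 (7878 ± 3765 CPM in platelets and 190 ± 79 CPM in PBMCs, SD, n = 15, log2 fold change 5.32, SE 0.28, adjusted P = 1.9e-16). Of the 26 other genes of the Rap1 cycle and integrin activation, 13 were higher and 12 lower (8 and 16 with library totals). Fermt2, which encodes kindlin-2, was the gene of this list with the largest ratio, though at a low level (11.1 ± 5.06 CPM in platelets and 0.0502 ± 0.0653 CPM in PBMCs, adjusted P = 4.1e-17). Of 9 other RGS genes tested, 4 were higher, among them Rgs6 (2.5 ± 1.08 CPM against 0.0975 ± 0.142 CPM, adjusted P = 2.5e-12), and 4 lower, among them Rgs1, an immediate early gene of lymphocytes (3.5 ± 1.2 CPM against 23.5 ± 9.68 CPM, log2 fold change -2.81, SE 0.22, adjusted P = 1.1e-12). Of 31 phospholipase, calcium and calmodulin genes, 13 were higher and 13 lower (8 and 21 with library totals). The calcium pump Atp2a3, named after its values were seen, was higher in platelets (5522 ± 2322 CPM against 734 ± 158 CPM, log2 fold change 2.87, SE 0.20, adjusted P = 3.0e-14). Those lower by the most were the pumps Atp2b1 of the plasma membrane (29.3 ± 16.2 CPM in platelets, 150 ± 30.9 CPM in PBMCs, log2 fold change -2.44, SE 0.17, adjusted P = 7.1e-14) and Atp2a2 of the endoplasmic reticulum (24.8 ± 10.7 CPM against 86.6 ± 3.58 CPM, log2 fold change -1.88, SE 0.13, adjusted P = 2.4e-14).

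The comparisons of S group with C group and O group asked whether platelet RNA differs before a tumor is visible. In the paper most mice given the cell number of S group formed no visible tumor. It states that the S group pools held some mice that might never form one, which lowers fold changes. In platelets, none of the 10 genes was called by edgeR at an unadjusted P under 0.05 in S group against C group, where 6.42% of 13268 genes were called, in S group against O group (13.9% of 13306 genes) or in O group against C group (4.79% of 13270 genes). DESeq2 called none of the 10 in these comparisons either. The median log2 fold change of the 10 was -0.03, 0.15 and -0.13, against -0.01 over all genes in each. The comparisons share groups and are not independent of each other.

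Rgs18 had the smallest P of the 10 in platelets. Its values were 1947, 2469, 1326, 1416 and 1255 CPM in C group, 1283, 1408, 1684, 940 and 1134 CPM in S group, and 442, 2897, 1224, 1346 and 668 CPM in O group. The groups overlapped, and O group held both the lowest and the highest of the 15 libraries. In S group against C group the log2 fold change was -0.41 (SE 0.24, adjusted P = 0.771), with a 95% confidence interval from -0.92 to 0.10. In O group against C group it was -0.33 (SE 0.44, adjusted P = 0.936).

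Nrgn had the widest differences between groups. It was measured at 34681, 27154, 14787, 18263 and 12278 CPM in C group, at 22524, 21189, 33575, 16424 and 10885 CPM in S group, and at 6972, 25713, 12759, 17387 and 7000 CPM in O group. The means were 21433 ± 9304, 20919 ± 8422 and 13966 ± 7883 CPM (SD, n = 5), and the 3 ranges overlapped. The log2 fold change was 0.51 in S group against O group (SE 0.46, adjusted P = 0.624) and -0.56 in O group against C group (SE 0.50, adjusted P = 0.912). With libraries scaled to the 12 platelet markers, Nrgn was called in S group against O group (log2 fold change 0.66, SE 0.28, adjusted P = 1).

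The group means of the Rap1 genes lay close together beside their spread. Rap1b had means of 1970 ± 487 CPM in C group, 1770 ± 378 CPM in S group and 1837 ± 705 CPM in O group (SD, n = 5). Rasgrp2 had 2051 ± 996, 2098 ± 663 and 1788 ± 731 CPM, and Fermt3 2768 ± 1207, 2605 ± 848 and 2674 ± 1192 CPM. For these genes the log2 fold changes in the 3 platelet comparisons lay between -0.18 (Rap1b, S group against C group) and 0.14 (Rasgrp2, S group against O group), none of them called. Rasa3 was measured at 1217, 795, 504, 720 and 652 CPM in C group and at 904, 771, 1112, 767 and 811 CPM in S group, with a log2 fold change of 0.15 (SE 0.22, adjusted P = 0.904). With library totals alone it was called (0.39, SE 0.18, adjusted P = 0.46), beside a shift of the median of all genes to 0.20.

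Stim1, Orai1, Gnaq and Rgs10 did not pass the test in any platelet comparison either. Orai1 had 88.5, 45.7, 25.3, 39.1 and 27.3 CPM in C group, 52.3, 39.2, 72.9, 41.7 and 41.7 CPM in S group and 53.4, 55.8, 32, 75.1 and 21.8 CPM in O group. C group replicate 1 held the highest value of all, and without it Orai1 was called in S group against C group (log2 fold change 0.46, SE 0.21, adjusted P = 0.43). Intervals for the 10 genes in S group against C group reached from -0.92 (Rgs18) to 0.75 (Nrgn), which as ratios of S group to C group are 0.527 for Rgs18 at the lower edge and 1.69 for Nrgn at the upper edge.

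**Figure D4:**
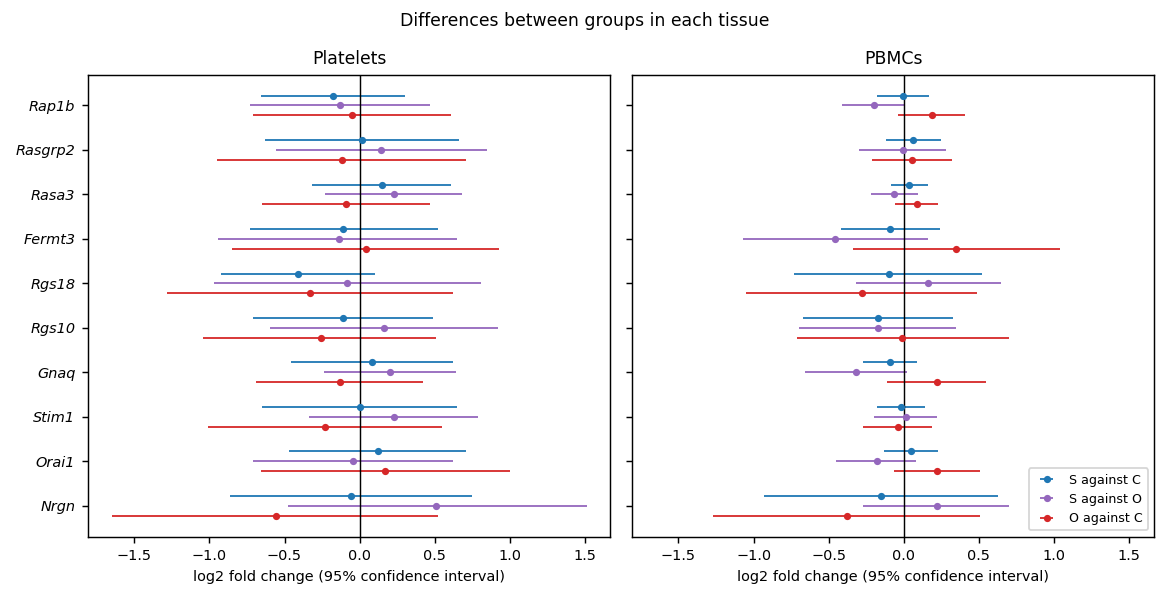
Log2 fold change with its 95% confidence interval for each gene in S against C, S against O and O against C group, in platelets (left) and PBMCs (right), 5 libraries per group. Every platelet interval includes 0, and in PBMCs the interval of Rap1b in S against O group, from -0.41 to -0.002, lies below it.

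In PBMCs, 1 of the 10 genes was called in S group against O group, where 12.2% of 14686 genes were called (7.8% lower, the direction of that gene), and none in S group against C group (2.64% of 15139 genes) or in O group against C group (11.9% of 14726 genes). DESeq2 also called 1 (Rap1b), 0 and 1 (Rasa3). Rap1b was measured at 335, 328, 341, 302 and 320 CPM in S group and at 404, 367, 384, 371 and 314 CPM in O group. Of the O group libraries, replicate 5 lay inside the range of S group and the other 4 above it. The log2 fold change was -0.20 (SE 0.09, adjusted P = 0.403). It ranged from -0.26 to -0.15 when 1 library was left out, and the call held in 2 of these 10 fits, without O group replicate 5 (adjusted P = 0.19) and without S group replicate 3 (adjusted P = 0.37). The call was also lost with the replicate number as a block (log2 fold change -0.20, adjusted P = 0.36), where Gnaq was called instead (-0.29, SE 0.10, adjusted P = 0.34), and without a filter on low counts (-0.18, adjusted P = 0.55). With library totals alone Rap1b stood at 0.18 (adjusted P = 0.41), beside a median of 0.36 over all genes. Erythroid markers took 6.75% to 27.1% of the counts in PBMC libraries of O group and 3.34% to 8.95% in S group, and their part in the difference was not tested.

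The response to tumor cells was compared between the tissues as an interaction. None of the 10 genes was called by edgeR or DESeq2 in any of the 3 contrasts, where 5.38% (S against C), 13.6% (S against O) and 6.59% (O against C) of 16498 genes were called at an unadjusted P under 0.05. The smallest P of the 10 was that of Gnaq in S against O (difference of log2 fold changes 0.37, SE 0.29, adjusted P = 0.582).

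Of the other genes of these pathways in platelets, 3 of 79 were higher and 1 lower in S group against C group, beside 6.42% of all genes called. Plcb2, a phospholipase C activated by G proteins, was higher in S group (47.6 ± 15.2 CPM against 32.6 ± 4.8 CPM, SD, n = 5, log2 fold change 0.52, SE 0.20, adjusted P = 0.752), as was Rgs14 (0.32, SE 0.15, adjusted P = 0.769), and the Ras family GTPase Rap2c was lower (-0.32, SE 0.13, adjusted P = 0.752). Plcb2 and Rgs14 were lower in platelets than in PBMCs (log2 fold changes -1.41 and -0.90), and T cell markers summed to 269 to 357 CPM in platelets of S group and 222 to 273 CPM in C group, B cell markers to a median of 1271 and 979 CPM and NK cell markers to 137 and 74.9 CPM; their part in these differences was not tested. In S group against O group, 1 was higher and 4 were lower of 79, against 13.9% of all genes called, among them Apbb1ip, which encodes RIAM, the Rap1 effector that recruits talin (log2 fold change -0.38, SE 0.15, adjusted P = 0.322), and the Gα genes Gnai3 (-0.38, SE 0.16, adjusted P = 0.325) and Gnas (-0.89, SE 0.38, adjusted P = 0.332). Apbb1ip was lower in platelets than in PBMCs (-0.36), whereas Gnai3 (0.47) and Gnas (2.28) were higher. Platelet markers in platelets summed to a median of 36980 CPM in S group and 51852 CPM in O group. Their ranges overlapped, and their part was not tested. Neutrophil markers in platelets summed to a median of 320 CPM in S group and 692 CPM in O group, B cell markers to 1271 and 654 CPM, T cell markers to 329 and 196 CPM and NK cell markers to 137 and 64.7 CPM, and their part was not tested. In O group against C group, 2 of 79 were higher and none lower, against 4.79% of all genes called. Rap1gap2, a Rap1 GTPase-activating protein of platelets, had 27.6 ± 5.13 CPM in C group and 42.9 ± 6.11 CPM in O group (log2 fold change 0.68, SE 0.16, adjusted P = 0.91). Atp2b4, a calcium pump also found in red cells, had 7.57 ± 3.19 CPM in C group and 31.8 ± 54.8 CPM in O group (2.23, SE 0.91, adjusted P = 0.91). Its SD in O group exceeded its mean. Erythroid markers in platelets summed to a median of 390939 CPM (87834 to 587135) in C group and 177886 CPM (67954 to 987052) in O group. Their part was not tested. Rap1gap2 was lower in platelets than in PBMCs (-1.62). Neutrophil markers in platelets summed to a median of 287 CPM (216 to 1071) in C group and 692 CPM (473 to 4309) in O group. The other leukocyte markers had lower medians in O group than in C group. B cell markers had 654 against 979 CPM and T cell markers 196 against 248 CPM. NK cell markers had 64.7 against 74.9 CPM, and monocyte and macrophage markers 1757 against 2600 CPM. The part of these markers was not tested. None of these passed adjustment over all genes.

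In PBMCs, none of 77 other genes was called in S group against C group by edgeR, against 2.64% of all genes. In S group against O group 4 of 76 were lower, against 7.8% of all genes, led by Vcl (log2 fold change -0.90, SE 0.35, adjusted P = 0.359), Gnas (-0.75, SE 0.31, adjusted P = 0.372) and Itgb3, the β3 integrin subunit (-1.09, SE 0.46, adjusted P = 0.379). Itgb3 had 182 ± 16.4 CPM in S group and 376 ± 305 CPM in O group, and the summed platelet markers in these libraries were 1234 to 1842 CPM and 916 to 6644 CPM. In O group against C group 3 of 77 were called, against 11.9% of all genes. Plcg1 was lower (-0.26, SE 0.11, adjusted P = 0.381), and Plcg2 (0.18, SE 0.07, adjusted P = 0.381) and Gnas (0.74, SE 0.31, adjusted P = 0.392) were higher. Gnas had 93.1 ± 51 CPM in O group and 56.9 ± 5.51 CPM in C group. In these PBMC libraries erythroid markers summed to a median of 135422 CPM in O group and 27358 CPM in C group, and T cell markers to 340 to 439 CPM and 428 to 592 CPM, and their part in these differences was not tested.

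All 10 genes varied more between platelet libraries than between PBMC libraries, as did 85.6% of all genes tested. The coefficient of variation over the 15 platelet libraries ran from 25.7% (Rasa3) to 46.2% (Nrgn). In PBMCs it was 3.74% for Rasa3, between 9.28% and 18.5% for Stim1, Rap1b, Rasgrp2, Orai1 and Gnaq, and between 30.8% and 37.8% for Rgs10, Rgs18, Fermt3 and Nrgn, the 4 genes with the largest difference between the tissues.

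This variation went with the content of platelet markers. Over 15 platelet libraries, 8 of the 10 genes correlated with the platelet marker score at an adjusted P under 0.05 (60 relations, with 3 scores in 2 tissues, permutation test with 100000 resamples, two-sided). These 8 had r of at least 0.63, a value reached by 11.5% of the 13623 genes tested outside the marker list. For Fermt3, Pearson's r was 0.98 and Spearman's rho 0.97 (permutation P = 1e-05 for each, the smallest these resamples can give, adjusted P = 0.0001), and r was 0.96 without the 2 libraries farthest from the median score and 0.98 within groups. For Orai1, r was 0.94 and rho 0.93 (permutation P = 1e-05 and 2e-05, adjusted P = 0.0001 and 0.0002), and 0.89 without those 2 libraries. Rgs18 had r of 0.48 and rho of 0.64 (permutation P = 0.069 and 0.013, adjusted P = 0.16 and 0.045), and its r fell to 0.27 without those libraries. Rasa3 had r of 0.55 and rho of 0.60 (permutation P = 0.032 and 0.021, adjusted P = 0.082 and 0.065), and 0.40 without them. Of the 8 genes, Nrgn fell from r of 0.68 to 0.44 and Gnaq from 0.63 to 0.40 without those libraries, and the rho of Gnaq did not pass (0.58, adjusted permutation P = 0.065). Gene and score share the scaling of their library. None of the 10 genes correlated with the leukocyte or erythroid score in platelets at an adjusted P under 0.05. The share of all genes that pass was not worked out for these scores.

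In PBMC libraries, 9 of the 10 genes correlated with the platelet marker score, with r of at least 0.68, a value reached by 6.93% of 15216 genes. By rank Orai1 did not pass (rho 0.59, adjusted permutation P = 0.065), and without 2 libraries r fell to 0.49 for Orai1 and 0.48 for Rap1b. Fermt3 (r 0.96, rho 0.97, permutation P = 1e-05 for each, adjusted P = 0.0001, r 0.97 without 2 libraries) and Rgs10 (r 0.95, rho 0.97, permutation P = 1e-05 for each, adjusted P = 0.0001, r 0.93 without 2 libraries) were highest. Nrgn had r of 0.77 and rho of 0.85 (permutation P = 0.0008 and 8e-05, adjusted P = 0.0044 and 0.0007, r 0.85 without 2 libraries). Rasa3, the gene with the most even level in PBMCs, had r of 0.11 and rho of 0.25 (permutation P = 0.71 and 0.36, adjusted P = 0.85 and 0.61). Of the 10, Rap1b alone correlated with the erythroid score in PBMCs (r 0.72, rho 0.62, permutation P = 0.0022 and 0.016, adjusted P = 0.0094 and 0.054, r 0.53 without 2 libraries), and Rasgrp2, Fermt3 and Orai1 with the leukocyte score (r from 0.59 to 0.70, adjusted permutation P from 0.013 to 0.047), of which by rank Orai1 alone passed (rho 0.76, adjusted permutation P = 0.007, against 0.065 for both others). The share of all genes that pass for the erythroid and leukocyte scores in PBMCs was not worked out. PBMC C group replicate 3 had the lowest platelet score and also the lowest Nrgn (170 CPM) and Rgs18 (20.4 CPM) of the PBMC libraries.

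**Figure D5:**
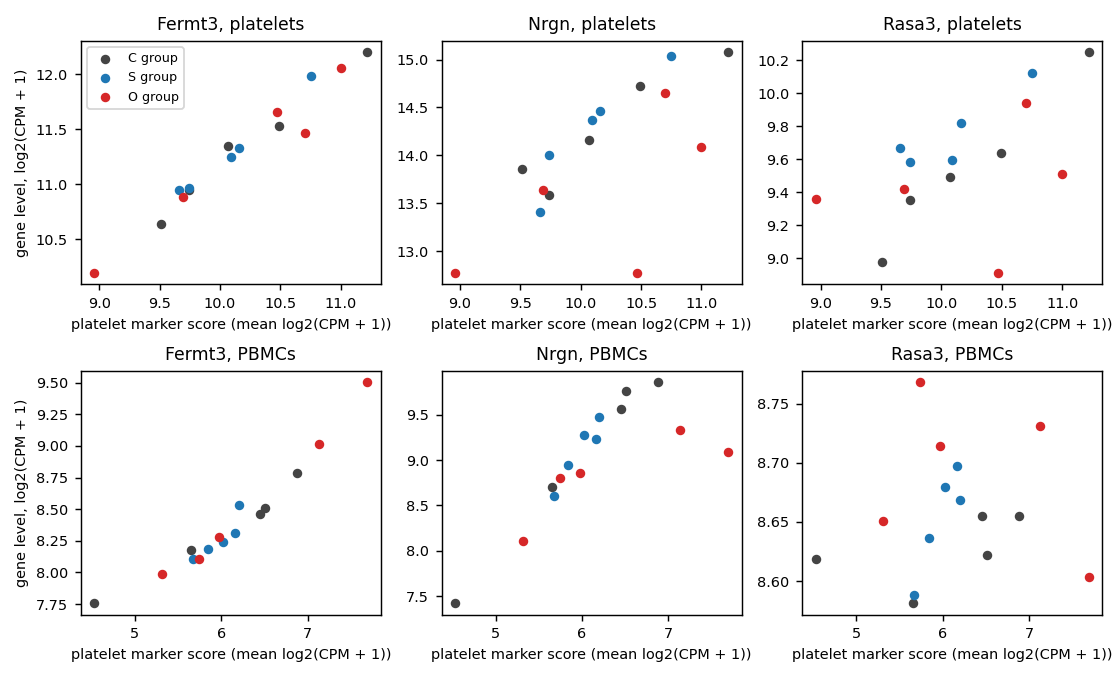
Level of Fermt3, Nrgn and Rasa3 (log2(CPM + 1)) against the platelet marker score (mean log2(CPM + 1) of 12 markers) in 15 platelet libraries (top) and 15 PBMC libraries (bottom), coloured by group. Fermt3 follows the score in both tissues, Nrgn follows it with 2 libraries of O group below the others, and Rasa3 shows no such relation in PBMCs (r 0.11).

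Among themselves the 10 genes were positively correlated over the platelet libraries, as a description over 15 points that share library scaling. Rgs10 and Rasgrp2 were each other's closest partner (r 0.95), as were Fermt3 and Orai1 (r 0.95), while Nrgn was closest to Rgs10 (r 0.93), Stim1 to Rasgrp2 (r 0.91), Rap1b to Rgs10 (r 0.90), Rasa3 to Stim1 (r 0.89), Rgs18 to Rap1b (r 0.86) and Gnaq to Stim1 (r 0.85). By rank the closest partner of Rgs10 was Nrgn (rho 0.96) and that of Rap1b was Rgs18 (rho 0.93). The lowest pair was Rgs18 with Gnaq (r 0.31). The genes outside the set whose pattern was most like the mean of the 10, among 13624 genes, included Srxn1 (r 0.993), Aldh2 (0.989), Inf2 (0.985) and Tspan14 (0.985), each over 15 libraries. These 4 genes had higher mean levels in platelets (350 CPM for Tspan14 to 5740 CPM for Aldh2) than in PBMCs (40.2 CPM for Srxn1 to 402 CPM for Aldh2).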

How the data were processed

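The authors removed reads with adapters, poly-N or low quality, aligned the rest with HISAT2 2.0.5 and counted them per gene with featureCounts 1.5.0-p3. The deposited values are these raw counts for 54532 Ensembl genes, without normalization, in 1 table per tissue. The submitters' processing notes name the build mm9, and the methods name none. Symbols, exon lengths and positions come from GENCODE mouse release 21 (GRCm38), which held 54495 of the IDs and every member, and promoter sequences from RefSeq (GRCm38.p6). Strand-specific counting is not stated in the sources used here, so reads of overlapping genes on opposite strands cannot be told apart; annotated genes inside or across the members had a mean of at most 3.65 CPM in either tissue.

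Libraries were assigned by titles and source names, because the tag for cell type calls the platelet libraries PBMC too. With R 4.3.3 and edgeR 4.0.16, each pair of groups was fitted alone (filterByExpr, TMM, quasi-likelihood F test, two-sided) and called at the study's unadjusted P of 0.05, with the Benjamini-Hochberg value beside it. Tissues were compared over 30 libraries with group as a covariate at an adjusted P of 0.05, and differences of response between tissues as an interaction. A standard error is the size of the log2 fold change divided by the square root of F. Levels are CPM, the counts scaled to a fixed library total, with TMM factors over all 30 libraries, so their group means can differ in direction from a fit of 2 groups. A score is the mean of log2(CPM + 1) over a marker list. DESeq2 1.42.0, RLE factors, no filter, the replicate number as a block, scaling to platelet markers, a leukocyte score as covariate, single groups and leaving out each library were alternatives. On simulated platelet counts for S group against C group (13268 genes), 89.5% of genes changed 2-fold and 98.9% of genes changed 4-fold were recovered, and 4.58% of unchanged genes were called.

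Named genes were all 10 members and their 8 paralogs, in each comparison the 3 genes of the other lists with the smallest P among those called, in the tissue comparison the 3 with the largest log2 fold change in each direction, and the 5 genes most like the members in pattern, of which 1 is not reported here; Atp2a3 was added after its values were seen. Members and lists were chosen with earlier results of these data known. Replicate numbers were read as pairing libraries where the deviations of every same-numbered pair correlated above 0.1. This held only in PBMCs of S group and C group (r from 0.29 to 0.56 over 5 pairs). The main fits, that comparison included, nevertheless carried no block, and the replicate block was an alternative only. This pairing comes from the data and not from the labels. The paper's legends give 5 independent experiments, without saying whether a replicate number stands for an experiment. The smallest member count in a library was 276 in platelets and 395 in PBMCs, so the spread between pools and not counting error limits the precision. No pair of libraries of a group agreed within sampling noise (chi-square per degree of freedom of at least 10.2).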

Additional observations from a re-analysis of the deposited data

Results flagged for a closer look

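Of 60 groups of 5 libraries tested (10 genes in 6 groups), 1 held a library far from the others by Dixon's test, where chance flags about 1 in 20. Fermt3 had 4049 CPM in platelet S group replicate 3, against 1972, 2005, 2437 and 2565 CPM in the other 4 libraries. That library also had the highest platelet marker score of its group (10.75).

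None of the 10 genes, but 6 other genes of the same pathways named by the fixed rule, had an edgeR interaction between tissue and group at an unadjusted P under 0.05, and none passed adjustment. Of 79 such genes, 2, 4 and 1 were called in S against C, S against O and O against C, below the 5.38%, 13.6% and 6.59% of all genes called. In S group against C group these were Rap2c (difference of log2 fold changes -0.40, SE 0.17, adjusted P = 0.888) and Plcb2 (0.51, SE 0.23, adjusted P = 0.907). In S group against O group they were Rap1gds1 (-0.44, SE 0.13, adjusted P = 0.201), Gnai3 (-0.46, SE 0.16, adjusted P = 0.231) and Rasa1 (-0.62, SE 0.23, adjusted P = 0.248). In O group against C group it was Rap1gap2 (0.59, SE 0.20, adjusted P = 0.546).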

How the results depend on the processing

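Across 2390 log2 fold changes of the 10 genes under alternatives, 2323 kept their call and stayed within 1 SE where uncalled, 30 moved by more than 1 SE while uncalled, 18 uncalled values passed the threshold in the same direction, 12 called values lost it and 7 reversed with a call in at least 1 of the fits. Of 1945 values uncalled in both fits, 251 changed sign, under several alternatives. The 7 reversals came with library totals alone, added after seeing the data: in the tissue comparison -0.35 for Rasa3 and -0.62 for Orai1, and -0.21 and -0.49 with the erythroid markers left out as well; in PBMC S group against O group 0.41 for Rasgrp2 and 0.18 for Rap1b; and in PBMC O group against C group -0.37 for Rasgrp2. All 10 genes stayed higher in platelets under DESeq2, RLE, no filter, the replicate block, each of 30 fits without a library, in C, S and O group alone and without the 3 libraries that stood apart, and the call was lost for Orai1 in O group alone (0.70, and 0.56 with the block). The number of genes called between groups changed in platelet S against C to 1 with library totals (0 to 1 leaving out libraries, 1 without C group replicate 1), in platelet S against O to 1 with scaling to platelet markers, in PBMC S against O to 0 without a filter and 4 with library totals (0 to 3 leaving out libraries, 3 without O group replicate 5), and in PBMC O against C to 1 with DESeq2 and 4 with library totals (0 to 2 leaving out libraries, 2 without O group replicate 5). It ranged from 0 to 1 leaving out libraries in PBMC S against C (1, Rgs10, without C group replicate 3) and in the tissue difference of S against O (1, Gnaq, without platelet C group replicate 1). The replicate block changed none of the 10 counts, but the 1 gene it called in PBMC S against O was Gnaq (-0.29) in place of Rap1b; there 1 of 5 same-numbered pairs had r under 0.1 (0.07, the others 0.22 to 0.39), although 4 of 5 libraries correlated best with their own number, as in platelet O against C (r from -0.06 to 0.46). All 20 median correlations moved by less than their standard error under rank correlation or a pseudocount of 0.1.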

Other observations

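The following ratios were chosen after the values were seen and have no test. Counts of Nrgn per count of Fermt3, a ratio within a library that no scaling changes, were 2.16 and 4.1 in platelet O group replicates 1 and 4, each a pool of 3 mice, and between 5.52 and 9.25 in the other 13 platelet libraries. Counts of Rgs18 per count of Fermt3 were 0.137 and 0.317 in these libraries and between 0.413 and 1.02 in the other 13. PBMC O group replicate 1 likewise had the lowest such ratios among PBMC libraries, 0.746 for Nrgn and 0.0856 for Rgs18, whereas PBMC O group replicate 4, with 1.25 and 0.113, lay inside the range of the others. The other 3 platelet pools of O group, of 4, 5 and 5 mice, had 9.07, 6.76 and 5.98 counts of Nrgn per count of Fermt3. Platelet O group replicate 1 also had the highest erythroid score of the platelet libraries (16.03, replicate 4 had 11.98) and a normalization factor of 0.417. PBMC C group replicate 3, a pool of 5 mice, had a ratio of 0.789 for Nrgn. The part of pool size and of erythroid RNA was not tested.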
